A study of Homo sapiens with 12 samples.

Results

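The miR-135 family comprises 4 of the 2565 human miRNA probes on the arrays studied, namely both arms of miR-135a and of miR-135b. Its members, hsa-miR-135b-5p, hsa-miR-135b-3p, hsa-miR-135a-5p and hsa-miR-135a-3p, were taken by probe name. The measurements were 12 one-colour arrays of total RNA from KYSE150, an oesophageal squamous carcinoma cell line. In 6 of them the cells had received the sugar-binding protein galectin-9 at 100 nM for 6 h, and in the other 6, the controls, they had not. Both groups grew in the same medium with little serum, and 1 line, 1 dose and 1 time were studied. The family was selected on the galectin-9 contrast itself, because its paralogs differed in opposite directions, so the differences between galectin-9 and control arrays are given as values without a test.

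MicroRNAs are short RNAs cut from hairpin precursors, and each hairpin can yield an arm from its 5′ side and an arm from its 3′ side. The loaded arm pairs with mRNAs mainly through its seed, and the matching mRNAs are repressed. The 5′ arms of miR-135a and miR-135b are the usual guide strands of this family. They are known to target APC, a brake on Wnt signalling, and miR-135b is known for raised levels in colorectal carcinoma.

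The sequences show how closely the probes' targets resemble each other. All 4 members were found by name among RefSeq sequences on GRCh38.p14, and the mature forms are given with the seed, bases 2 to 8 from the 5′ end, in capitals.
hsa-miR-135b-5p: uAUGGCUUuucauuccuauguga
hsa-miR-135a-5p: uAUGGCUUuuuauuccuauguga
hsa-miR-135b-3p: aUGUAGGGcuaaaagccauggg
hsa-miR-135a-3p: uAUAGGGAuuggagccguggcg
hsa-miR-135a-2-3p: aUGUAGGGauggaagccaugaa
The 5′ arms share their seed and differ by 1 substitution, C11U, with the base of miR-135b-5p first and positions counted from its 5′ end. Signal shared between these probes was therefore possible and was not tested. The 3′ arms of miR-135b and miR-135a on the array have different seeds and an edit distance of 8. The fifth sequence, miR-135a-2-3p, has the seed of miR-135b-3p, an edit distance of 5 to it and no probe of its own. No other miRNA among 2253 probes with a RefSeq sequence shared a seed with any member, and the nearest other sequence lay at an edit distance of 7 from miR-135b-3p and of 8 from each of the other members.

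The precursors show which arms have a single origin, and are given with the mature arms in capitals.
MIR135B: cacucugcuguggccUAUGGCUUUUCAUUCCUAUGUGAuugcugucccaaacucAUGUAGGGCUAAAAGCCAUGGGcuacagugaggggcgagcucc
MIR135A1: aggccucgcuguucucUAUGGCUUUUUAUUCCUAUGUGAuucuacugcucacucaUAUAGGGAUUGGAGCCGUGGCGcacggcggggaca
MIR135A2: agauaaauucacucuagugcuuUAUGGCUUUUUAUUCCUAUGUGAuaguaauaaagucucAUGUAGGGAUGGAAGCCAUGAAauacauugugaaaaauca
MIR135B is a hairpin of 97 bases at chr1:205448302-205448398 on the minus strand, within the annotated spans of LEMD1, a cancer-testis antigen gene, and BLACAT1. MIR135A1 lies at chr3:52294219-52294308 on the minus strand, within the span of the glycerate kinase gene GLYCTK. MIR135A2 lies at chr12:97563812-97563911 on the plus strand, within RMST, a long noncoding RNA of neural development. The 5′ arm of miR-135a is identical in MIR135A1 and MIR135A2, so its probe cannot tell the loci apart. The 3′ arm on the array, miR-135a-3p, belongs to MIR135A1 alone. The 3′ arm of MIR135A2 is miR-135a-2-3p.

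Each array lists raw Cy5 intensities in arbitrary units, and a probe counts as detected where it exceeds the array's background by more than 2 SD of the blank spots. Galectin-9 arrays had 1810 ± 202 detected human probes and control arrays 1559 ± 373 (SD, n = 6 each), and the number of arrays limits the precision. Of 10 markers of other cells 1, the endothelial miR-126-3p, was detected on all 12 arrays, while 4 were detected on fewer than 6. Between these, miR-142-3p was detected on 11, miR-143-3p and miR-145-5p on 8 each, miR-122-5p on 7 and miR-223-3p on 6. Of 5 epithelial and squamous markers 4 were detected on all arrays, among them miR-205-5p, and the fifth, miR-944, on 11. The median intensity above background was 2985 for miR-205-5p, 42.7 for miR-203a-3p and 5.71 for miR-944. It was 43.9 for miR-126-3p and 4.00 for miR-142-3p, so detection counts alone do not set the lists apart. The labels do not say whether replicates were separate cultures, and each p-value below therefore covers no more than the spread of these 12 arrays, possibly a technical one. On each of 3 slides the even positions held galectin-9 arrays and the odd positions control arrays, so treatment and parity of position cannot be told apart.

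Within the family, miR-135b-5p was the only probe detected on all 12 arrays. The other probes lay near the limit: miR-135a-3p was detected on 9 arrays, miR-135b-3p on 7 and miR-135a-5p on 4. Of the 4 members, 3 were thus among the 1734 probes detected on at least 6 arrays, over which models were fitted unless another set is named.

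The limit itself was exceeded by blank spots and by positions named "No Probe", whose content the sources used here do not describe. Of the blank spots, 8.12% lay above it over all arrays, from 5.62% to 9.38% per array. Of the 85 positions per array that the files name "No Probe", 54.2% did. Detection of a dim member is therefore described below beside these positions.

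**Figure D1:**
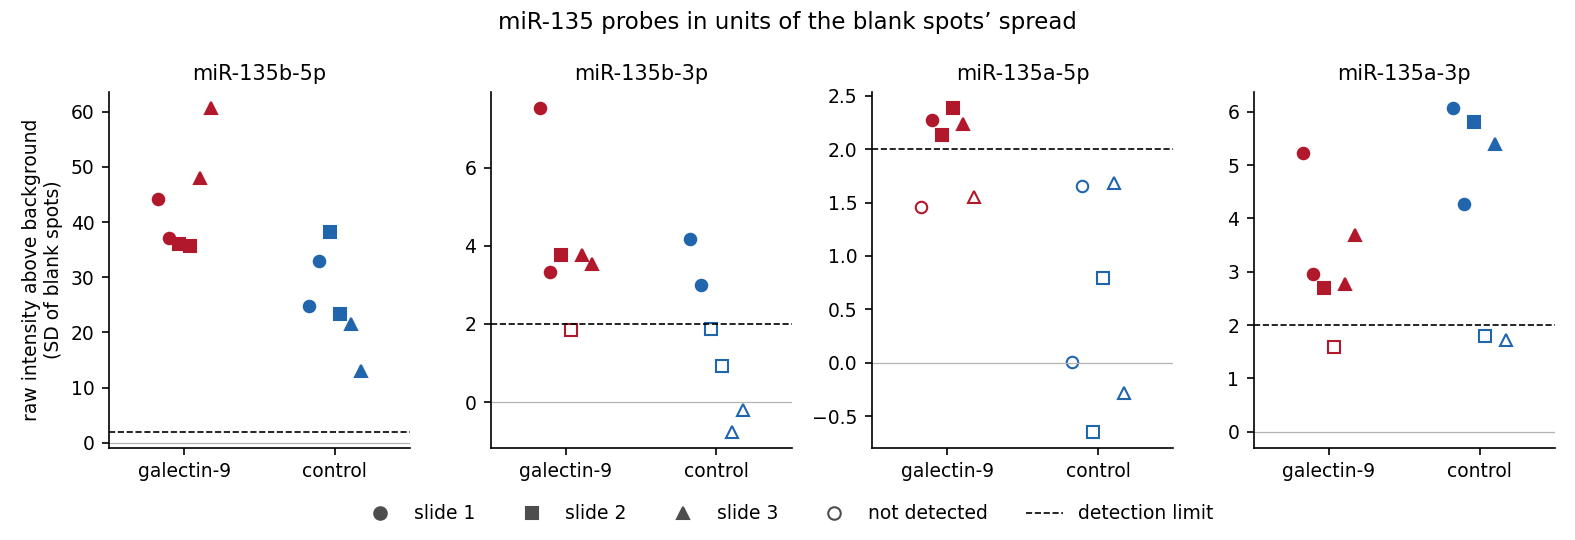
Raw intensity above the array's background, in SD of that array's blank spots, for each miR-135 probe on 6 galectin-9 and 6 control arrays; symbols mark the slide, open symbols arrays without detection, and the dashed line the limit of 2 SD. miR-135b-5p has a median of 40.6 SD in galectin-9 and 24.1 SD in control arrays, while the other probes lie between -0.76 and 7.52 SD.

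hsa-miR-135b-5p, the guide arm of MIR135B, was clearly above background in both groups. Its intensity above background was 33.2 at the lowest, 35.8 at the median and 45.4 at the highest in galectin-9 arrays, against 19.9, 26.1 and 32.05 in control arrays. All 6 galectin-9 arrays lay above the highest control array on this scale without normalisation, as 1.04% of the 1734 probes did. Galectin-9 arrays were at 43.6 ± 9.71 SD of the blank spots and control arrays at 25.6 ± 8.85 (SD, n = 6 each). No blank spot reached the probe on any array, and of the 85 "No Probe" positions at most 1 did.

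After quantile normalisation, the log2 level of miR-135b-5p was 5.18 ± 0.31 in galectin-9 arrays and 4.73 ± 0.25 in control arrays (SD, n = 6 each). The difference of 0.45 corresponds to a 1.36-fold higher level with galectin-9. The galectin-9 arrays had 4.68 at the lowest, 5.21 at the median and 5.58 at the highest, against 4.27, 4.77 and 4.96 in the controls. The groups overlapped through galectin-9 replicate 1, and the other 5 galectin-9 arrays lay above the highest control. Of the 891 probes detected on all arrays, 1.35% had all 6 galectin-9 values above all 6 control values, and 10 had a larger positive difference than miR-135b-5p.

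As a background, 0.173% of the 1734 probes were called higher with galectin-9 by limma and 0% lower at an adjusted p under 0.05, while 73 were higher and 150 lower at an unadjusted p under 0.05. These are 3 calls, all higher, against 1 with the replicate pairs as a block and 13 higher and 6 lower with the normexp background correction.

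The authors' own scalings placed the probe in the same order. Their globally normalised intensity had a mean of 163 ± 37.4 in galectin-9 arrays and 98.3 ± 22.8 in control arrays (SD, n = 6 each). In the authors' deposited series table, which holds no other member, the values were 36.9 ± 7.51 in galectin-9 and 26.9 ± 4.23 in control arrays (SD, n = 6 each). The log2 difference was 0.74 with the global normalisation, where the median of all tested probes was 0.23, and 0.45 in the series table, where that median was -0.02. It was 0.17 with the normexp correction, which adds an offset of 50 and so draws dim values together.

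Equal replicate numbers sat side by side on a slide, and the difference of miR-135b-5p within such pairs ran from 0.23 to 0.83. These pairs hold the contrast that chose the family, so their direction is not independent of that choice. The largest pair difference was that of replicate 6, where the control array had the fewest detected probes. Within slides 1, 2 and 3 the difference was 0.38, 0.26 and 0.70. The dependence of the difference on slide did not pass for hsa-miR-135b-5p (limma F-test, adjusted p = 1, unadjusted p = 0.344), and 0% of the tested probes passed that test, with 5.36% at an unadjusted p under 0.05. The unadjusted p was 0.327 for hsa-miR-135b-3p (limma adjusted p = 1) and 0.0593 for hsa-miR-135a-3p (limma adjusted p = 0.988). These 3′ arms entered the test with their undetected values replaced, as described below.

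**Figure D2:**
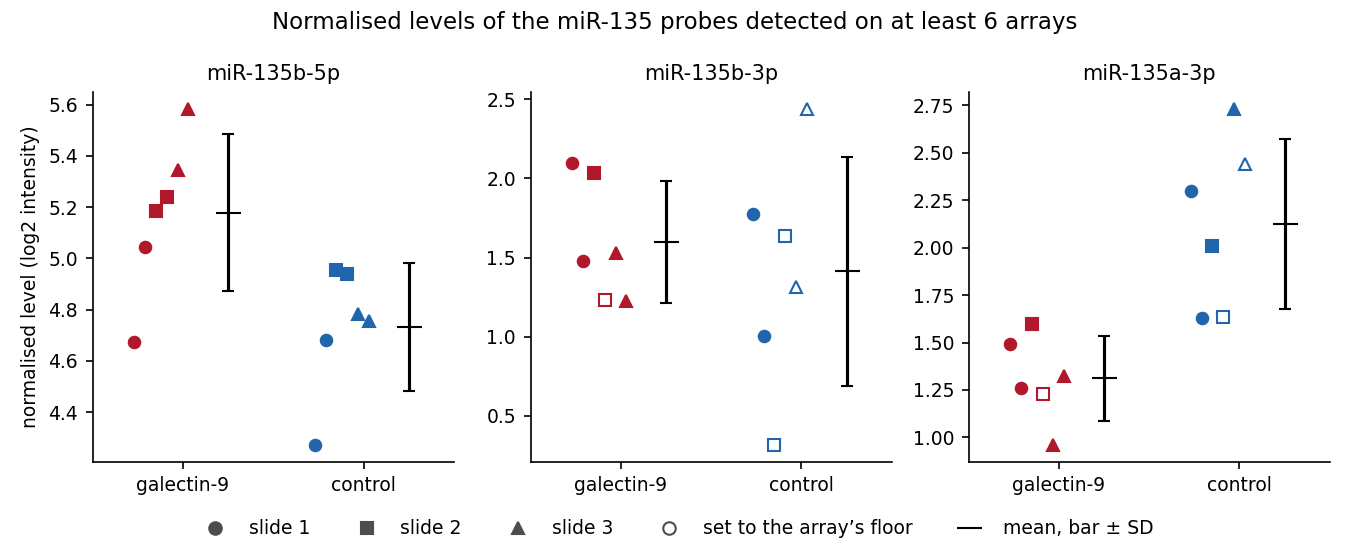
Log2 level after quantile normalisation for the 3 miR-135 probes detected on at least 6 arrays, in 6 galectin-9 and 6 control arrays; open symbols are values set to the array's floor, and bars show the mean and SD. miR-135b-5p averages 5.18 in galectin-9 and 4.73 in control arrays, and miR-135a-3p 1.31 in galectin-9 and 2.12 in control arrays.

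hsa-miR-135b-3p, the passenger arm of the same hairpin, was detected on 5 of 6 galectin-9 arrays and 2 of 6 control arrays. Its intensity above background ran from 2.25 through a median of 2.92 to 5.64 in galectin-9 arrays, against -0.70, 1.34 and 4.13 in control arrays. The ranges overlapped, and 1 galectin-9 array, replicate 1, lay above the highest control. On the same arrays, between 3 and 49 of the 85 "No Probe" positions were at least as bright in the galectin-9 group, and between 14 and 84 in the control group.

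The normalised log2 level of miR-135b-3p was 1.60 ± 0.38 in galectin-9 arrays and 1.41 ± 0.72 in control arrays (SD, n = 6 each). The difference of 0.19 was smaller than the spread between arrays. An undetected value is set to the lowest detected value of its array, its floor, and these floors ran from -0.33 to 1.23 in galectin-9 and from 0.31 to 2.44 in control arrays. The highest control value of miR-135b-3p, 2.44, was the floor of control 6. Only the pairs of replicates 1 and 2 had both arrays detected, with differences of 0.33 and 0.48, while the remaining 4 ran from -1.22 to 1.72.

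hsa-miR-135a-5p, the guide arm of miR-135a, was detected on 4 of 6 galectin-9 arrays and on 0 of 6 control arrays. Its intensity above background was 1.10 at the lowest, 1.86 at the median and 2.92 at the highest in galectin-9 arrays, against -0.54, 0.48 and 1.56 in the controls. The 4 detected values lay between 2.14 and 2.38 SD of the blank spots, just above the limit of 2. On the galectin-9 arrays at least 18 of 320 blank spots and at least 27 of 85 "No Probe" positions were as bright.

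No fold was given for miR-135a-5p, since its mean log2 level in galectin-9 arrays, 0.62 ± 0.70, was below the mean of the floors in control arrays, 1.13 ± 0.83 (SD, n = 6 each). The intensities above background were thus higher in the galectin-9 group while the floored log2 levels were lower. For both 5′ arms, which carry the shared seed, the mean intensity above background, without normalisation, was higher in galectin-9 arrays. On that scale, the mean was 37.9 in galectin-9 and 25.7 in control arrays for miR-135b-5p, and 1.84 in galectin-9 and 0.50 in control arrays for miR-135a-5p. However, on control arrays a median of 74 of the 85 "No Probe" positions and 114 of 320 blank spots were as bright as miR-135a-5p. The values of miR-135a-5p at background therefore do not settle its direction.

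hsa-miR-135a-3p, the passenger arm of MIR135A1, was the member with lower intensities above background in galectin-9 arrays, on average 2.68 ± 0.70 against 4.09 ± 1.47 in control arrays (SD, n = 6 each). It was detected on 5 of 6 galectin-9 arrays and 4 of 6 control arrays. Its intensity above background was 1.95 at the lowest, 2.67 at the median and 3.92 at the highest in galectin-9 arrays, against 2.13, 4.34 and 6.00 in control arrays. The ranges overlapped on this scale, on which 0.115% of the tested probes had all galectin-9 arrays below all control arrays.

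On the normalised log2 scale miR-135a-3p had 1.31 ± 0.22 in galectin-9 arrays and 2.12 ± 0.45 in control arrays (SD, n = 6 each), a difference of -0.81. With floors in place, all 6 galectin-9 values lay below all 6 control values, as they did for 0.75% of the tested probes. However, the values of control 4 (1.64), control 6 (2.44) and galectin-9 replicate 4 (1.23) were floors, which are upper bounds. In intensity above background, controls 4 and 6 had 2.13 and 2.75, below the 3.92 of galectin-9 replicate 1. Over the 5 galectin-9 and 4 control arrays that detected the probe, the difference was -0.84. With the highest array floor, 2.44, applied to all arrays, only control 5 stayed above it and the difference was -0.05. With normexp it was -0.05 as well.

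Both arrays of a pair detected miR-135a-3p in 4 of the 6 pairs of equal replicate number. Its differences there ran from -0.37 to -1.77, the largest in replicate 5, and these pairs too hold the contrast that chose the family. Pair 4 gave only a difference between array floors, and in pair 6 the control was at its floor. Within slides 1, 2 and 3 the difference was -0.59, -0.41 and -1.44. Between 8 and 48 of the 85 "No Probe" positions on galectin-9 arrays, and between 4 and 47 on control arrays, were at least as bright as this probe.

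**Figure D3:**
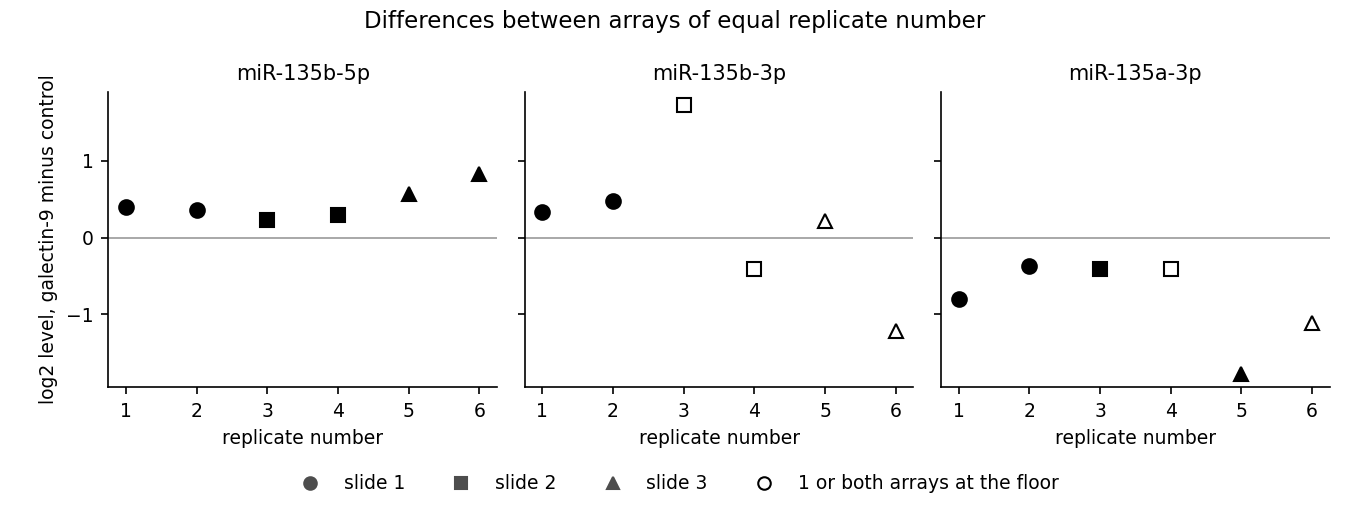
Log2 difference, galectin-9 minus control, between arrays of equal replicate number for the 3 tested miR-135 probes; symbols mark the slide, and open symbols pairs with 1 or both arrays at the floor. Among pairs with both arrays detected, differences run from 0.23 to 0.83 for miR-135b-5p, from -1.77 to -0.37 for miR-135a-3p and from 0.33 to 0.48 for miR-135b-3p. The open symbols hold floors in place of a level, and all pairs hold the contrast that chose the family.

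The detection limit is 2 SD of the blank spots, so detection depends on their spread by construction. This spread averaged 0.894 ± 0.191 in galectin-9 and 1.07 ± 0.283 intensity units in control arrays (SD, n = 6 each). The 3 arrays on which miR-135a-3p was not detected, control 6, galectin-9 replicate 4 and control 4, were those with the widest blank spread, at 1.59, 1.23 and 1.19 units. miR-135b-3p was missed on the same 3 arrays and on controls 3 and 5, at 0.839 and 0.926 units. It did not follow the order of the spread, since it was detected on control 1 and galectin-9 replicate 3, at 0.989 and 0.987 units. miR-135a-5p did not follow this order either. That probe was detected on galectin-9 replicate 4 and missed on galectin-9 replicates 1 and 6, which had the narrowest spread. The 3 arrays of widest blank spread were left out in a further comparison, a choice made after seeing the data. The log2 difference was then 0.49 for miR-135b-5p, 0.57 for miR-135b-3p and -0.84 for miR-135a-3p (5 galectin-9 and 4 control arrays). For miR-135b-3p, controls 3 and 5 were still at their floors. Over the 5 galectin-9 and 2 control arrays that detected it, its difference was 0.28. The part of the blank spread in these differences was not tested.

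**Figure D4:**
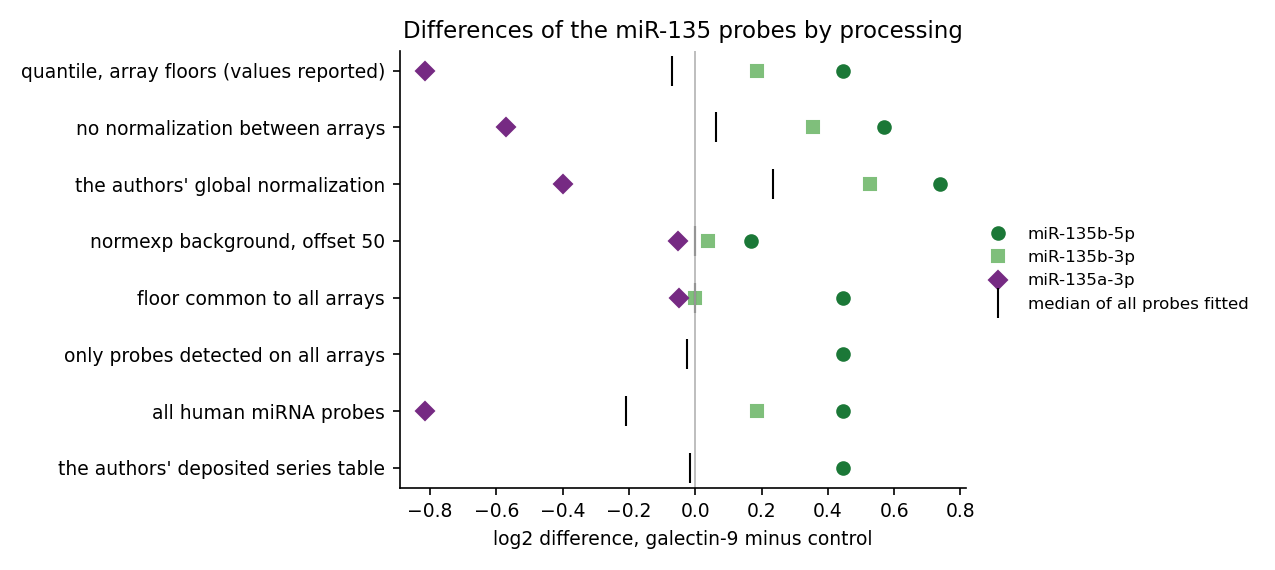
Log2 difference, galectin-9 minus control, of the 3 tested miR-135 probes under 8 ways of processing, with the median of all probes in each as a vertical bar. miR-135b-5p lies above 0, from 0.17 with normexp to 0.74 with the authors' global normalisation, while miR-135a-3p lies between -0.81 and -0.05 where it has a value.

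Slide and place on the slide are independent of the contrast that chose the family, and were tested over all 1734 probes. hsa-miR-135b-5p averaged 4.67 ± 0.32 on slide 1, 5.08 ± 0.15 on slide 2 and 5.12 ± 0.41 on slide 3 (SD, n = 4 each). The difference between slides had an unadjusted p of 0.0182 and did not pass after adjustment (limma F-test, adjusted p = 0.445), and 0.404% of all probes passed, with 8.59% at an unadjusted p under 0.05. The F value of 5.99 for hsa-miR-135b-5p moved with the scaling, to 0.993 without normalisation and 0.0904 with the authors' global normalisation. The corresponding limma adjusted p was 0.951 for hsa-miR-135b-3p and 0.932 for hsa-miR-135a-3p.

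Positions 3 and 4, which hold replicates 2, 4 and 6, were compared with positions 1 and 2, which hold replicates 1, 3 and 5. hsa-miR-135b-5p averaged 5.04 at positions 3 and 4 and 4.87 at positions 1 and 2, a log2 difference of 0.17 (95% interval -0.07 to 0.41, limma adjusted p = 0.395). The difference was -0.01 for hsa-miR-135b-3p (-0.77 to 0.75, limma adjusted p = 0.989) and -0.26 for hsa-miR-135a-3p (-0.69 to 0.17, limma adjusted p = 0.481). Of all probes, 0.231% passed this test, and 19% had an unadjusted p under 0.05. These fits take the 12 arrays as independent, although arrays of equal replicate number deviated together. With each replicate pair averaged to 1 value, chosen after seeing the data, limma called 0 probes for slide and 0 for position, with 119 and 284 at an unadjusted p under 0.05. The adjusted p of hsa-miR-135b-5p was then 0.772 for slide and 0.504 for position (limma, interval of the position difference -0.15 to 0.49). With 1 difference per pair, the unadjusted p for dependence of the treatment difference on slide was 0.0414 for hsa-miR-135a-3p (limma adjusted p = 0.668), and 0 probes were called, with 122 at an unadjusted p under 0.05. For this probe, pairs 4 and 6 entered with floors in place of a level, on 1 or both arrays.

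The members were next set against each other over the 12 arrays through their deviations from the group means. The arms of MIR135B, miR-135b-5p and miR-135b-3p, had a Pearson r of -0.46 and a Spearman rho of -0.48 (permutation p = 0.128 and 0.125, adjusted p = 0.256 for both, over 6 tests). For miR-135b-5p and miR-135a-3p, r was -0.29 and rho -0.31 (permutation p = 0.365 and 0.322, adjusted p = 0.365 for both). For the 3′ arms, miR-135b-3p and miR-135a-3p, r was 0.40 and rho 0.57 (permutation p = 0.319 and 0.0897, adjusted p = 0.365 and 0.256). None passed, and both arms of a pair were detected together on only 7, 9 and 7 arrays. On the other arrays at least 1 value was a floor. On control 4, control 6 and galectin-9 replicate 4 both 3′ arms held the same floor, 1.64, 2.44 and 1.23. Their r and rho with each other therefore partly reflect the array floors by construction. With slide means removed r was -0.67, -0.69 and 0.37, and without the 2 arrays farthest from the median -0.38, -0.30 and 0.33, each without a p-value. The permutations took the arrays of a group as independent, although arrays of equal replicate number deviated together.

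Among probes detected on all arrays, the 3 with deviations most like those of miR-135b-5p were miR-4299 (r = 0.87), the shared probe of miR-365a-3p and miR-365b-3p (0.85) and miR-374a-5p (0.84), the highest of 890 candidates over 12 arrays. For miR-135a-3p they were miR-1228-5p (0.84), miR-4651 (0.80) and miR-6802-3p (0.75). For miR-135b-3p they were miR-6791-3p (0.82), miR-3944-3p (0.81) and miR-6810-3p (0.78). However, miR-135b-3p was detected on only 7 and miR-135a-3p on 9 of the 12 arrays, and their other values were floors. Over the 12 arrays, r with the array floor was 0.54 for miR-135b-3p, 0.28 for miR-135a-3p and 0.20 for miR-135b-5p. The part of the floors in these likenesses was not tested.

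Other miRNAs tied to the family were described by list, each beside the 1734 tested probes, of which 36.7% had a difference above 0 and whose median difference was -0.07. miRNAs known to be raised in colorectal carcinoma together with miR-135b had 9 of 9 probes above 0, with a median of 0.19 and a range from 0.04 for miR-96-5p to 0.42 for miR-21-5p. None of the 9 passed (limma, smallest adjusted p = 0.204), and 2 were higher at an unadjusted p under 0.05. The list was chosen with earlier results of these data known, so its common direction is described only and was not tested. miR-21-5p, the brightest of them, had a log2 level of 11.97 ± 0.14 in galectin-9 arrays and 11.54 ± 0.18 in control arrays (SD, n = 6 each). miR-31-5p, miR-182-5p and miR-183-5p were among the rest. All 9 were detected on all arrays, and of the 891 such probes 44.8% had a difference above 0, with a median of -0.02.

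Other miRNAs described as targeting APC showed no common direction. Of 7, 6 were tested, 3 lay above 0 and the median was 0.00, from -0.15 for miR-27b-3p to 0.13 for miR-27a-3p. None passed with limma, and none had an unadjusted p under 0.05. The untested member, miR-155-5p, was detected on 4 arrays.

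Hairpins within 100 kb were let-7g, 25858 bases from MIR135A1, and miR-1251, 71834 bases from MIR135A2, and none lay near MIR135B. let-7g-5p had a log2 level of 9.45 ± 0.19 in galectin-9 and 9.38 ± 0.14 in control arrays (SD, n = 6 each), a difference of 0.08 (limma adjusted p = 0.803). miR-1251-3p also differed by 0.08 (limma adjusted p = 0.836), and the other arms were detected on 2 arrays and 1 array. Neither had an unadjusted p under 0.05.

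A set of 18 probes near the members in sequence served as a further comparison, although none was closer than 7 edits. The number kept per member was capped, with ties broken by name, so equally near sequences may be missing. Of the 13 tested, 4 lay above 0, the median difference was -0.17, and none passed with limma (smallest adjusted p = 0.204). That p belongs to miR-21-5p, which is also in the colorectal list, so the lists are not separate. At an unadjusted p under 0.05, 2 were higher and 4 lower. Only 4 of the 18 were detected on all arrays.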

How the data were processed

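The deposited array files give, for 3200 spots, the raw intensity, the intensity after background subtraction and the intensity after global normalisation, per the file headers. From the values, the authors' background is the mean of 320 blank spots trimmed by 5% at each end, and intensities are listed above it by more than 2 SD. Their global normalisation sets the median listed intensity to 25, and the deposited series table is quantile-normalised, with a column median of 12.3 on a linear scale. The sources used here name no scanner or software.

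Raw intensity minus background was quantile-normalised over 2565 human probes (limma 3.58.1, R 4.3.3). Undetected values were set to the array's lowest detected value before log2. Spots carrying a quality mark, 6 in all, were dropped. The probes detected on at least 6 arrays were fitted with lmFit and eBayes, with Benjamini-Hochberg adjustment at 0.05, for treatment, slide and position, and tested on simulated data. Correlations used 100000 permutations within groups (numpy 2.4.6). Slide and position come from codes in the file names. Same-numbered samples deviated together in 6 of 6 pairs (r from 0.171 to 0.527) and were taken as pairs, although equal numbers also mark neighbouring positions. Of 2550 probes of 1 miRNA, 2253 matched RefSeq names.

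All members were named, with the 3 most correlated probes of each tested member and the lists' members. Members and lists were chosen with earlier results of these data known. Alternatives changed the normalisation, background, floor, filter and block, and left out arrays.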

Additional observations from a re-analysis of the deposited data

How the results depend on the processing

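Over the alternatives run, the galectin-9 difference (log2) ran from 0.17 to 0.74 for miR-135b-5p, from -1.44 to -0.049 for miR-135a-3p and from -0.50 to 0.66 for miR-135b-3p. Blocks and a changed set of tested probes leave these differences as they are by construction, and so does a common floor for miR-135b-5p. The authors' global normalisation gave 0.74 for miR-135b-5p and -0.40 for miR-135a-3p, and moved the median of all probes to 0.23. miR-135a-3p had -0.051 with normexp, -0.049 with a common floor, -0.41 within slide 2 and -1.44 within slide 3, where miR-135b-3p had -0.50. Leaving out single arrays gave 0.36 to 0.55 for miR-135b-5p, -0.91 to -0.69 for miR-135a-3p and -0.03 to 0.39 for miR-135b-3p. The cause was not tested.

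Probes called for galectin-9, 3 in all, were 19 with normexp (68.4% of them higher, against 100% before), 9 with a common floor (66.7% higher), 9 over probes detected on all arrays and 9 in the series table (66.7% higher in each). There were 5 with slide as a block, 0 within each single slide, where only 4 arrays are left, and 2 to 5 without single arrays, the 5 without galectin-9 replicate 1. With the replicate block 1 was called, and the members' differences are the same by construction. The 7 calls for slide became 106 without normalisation, 23 with the global normalisation, 14 with normexp, 3 with a common floor, 21 over probes on all arrays, 21 in the series table and 0 over all probes. The 4 for position became 9, 18, 50, 25, 64, 62 and 2 in that order. With replicate pairs averaged, added after seeing the data, limma called 0 for slide and 0 for position (119 and 284 at an unadjusted p under 0.05). No member passed for slide or position under any of these, and the position difference of miR-135b-5p reversed to -0.0055 with the global normalisation.

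List medians also moved with the scaling. For the colorectal list the median was 0.33 without normalisation, 0.50 with the global one and 0.12 with normexp, where 2 members passed. For the APC list it was 0.18 and 0.35 with the first 2 of these. For the neighbours it was 0.23 and 0.40, and -0.27 over all human probes. For the nearest sequences it was -0.0054, 0.17 and -0.0058 (1 passed), 0 with a common floor, 0.13 over probes on all arrays, -0.34 over all human probes and 0.14 in the series table. The correlation of miR-135b-5p with miR-135a-3p was -0.69 within slides.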
